A study of Mus musculus with 9 samples.

Results

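The 10 genes described here, B2m, H2-K1, H2-D1, Tap1, Tap2, Tapbp, Psmb8, Psmb9, Psmb10 and Nlrc5, form the route by which a cell displays peptides on MHC class I. They were taken by symbol from the 22609 genes of the count tables, all 10 were found, and all 10 passed the filter on low counts that left 13366 tested genes. The tumors were grown in the mammary fat pad from 4T1, a cell line of a mouse mammary carcinoma. The host strain, BALB/c, keeps a full immune system. All mice received 500000 cells after 6 weeks on their diet. The LFD group was fed 10 kcal% fat and given vehicle, the HFD group was fed 60 kcal% fat and given vehicle, and the HFD + EC359 group was fed 60 kcal% fat and given EC359, an inhibitor of the leukemia inhibitory factor receptor (LIFR), at 5 mg/kg on 5 days a week. The first question of the design is what HFD changes in the tumor and the second is what LIFR inhibition changes under HFD. There are 3 libraries in each group, the animals' ages are not stated in the sources used here, and no group combined EC359 with LFD.

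MHC class I molecules show fragments of a cell's own proteins to CD8 T cells and to natural killer cells. The proteasome cuts the proteins, and its inducible catalytic subunits (Psmb8, Psmb9 and Psmb10) favor ends that class I molecules bind well. The Tap1 and Tap2 transporter moves the peptides into the endoplasmic reticulum, tapasin (Tapbp) holds the empty class I molecule beside the transporter, and the molecule itself is a heavy chain (H2-K1, H2-D1) bound to the light chain beta-2 microglobulin (B2m). Nlrc5 is the transactivator that acts on the promoters of many of these genes, and interferon gamma is the classical inducer of the whole set.

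Of the 10 genes, 7 lie on chromosome 17 (mm9), between 34056423 and 35404442: Tapbp, H2-K1, Psmb9, Tap1, Psmb8, Tap2 and H2-D1 in that order. B2m lies on chromosome 2 from 121973423 to 121978818, and Nlrc5 (96996663 to 97051172) and Psmb10 (108459628 to 108462292) lie on chromosome 8. Promoter sequences from RefSeq (build GRCm38.p6) were found for 8 of the 10, all except Nlrc5 and Tap2. The 250 bases before the start of B2m, the heavy chains and Tap1 are printed because these 4 genes were higher in HFD + EC359 than in HFD. In them capitals mark letters of class I promoter elements searched on both strands: GAAANNGAA or GAANNGAAA (interferon-stimulated response element type), GGGGATTCC (NF-kB), TGACG and ATTGG (the X2 and Y elements of the module through which Nlrc5 acts).
B2m, chr2:122147437-122147686, plus strand: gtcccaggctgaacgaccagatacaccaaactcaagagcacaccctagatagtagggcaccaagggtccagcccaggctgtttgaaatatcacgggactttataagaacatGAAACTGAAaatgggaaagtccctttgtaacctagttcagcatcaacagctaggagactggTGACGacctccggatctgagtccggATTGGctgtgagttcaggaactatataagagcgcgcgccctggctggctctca
H2-K1, chr17:34000348-34000597, minus strand: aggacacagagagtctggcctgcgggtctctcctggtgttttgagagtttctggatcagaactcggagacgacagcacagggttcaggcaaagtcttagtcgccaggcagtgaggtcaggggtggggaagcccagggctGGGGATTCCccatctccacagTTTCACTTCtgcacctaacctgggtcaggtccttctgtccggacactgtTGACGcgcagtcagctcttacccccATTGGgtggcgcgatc
H2-D1, chr17:35262844-35263093, plus strand: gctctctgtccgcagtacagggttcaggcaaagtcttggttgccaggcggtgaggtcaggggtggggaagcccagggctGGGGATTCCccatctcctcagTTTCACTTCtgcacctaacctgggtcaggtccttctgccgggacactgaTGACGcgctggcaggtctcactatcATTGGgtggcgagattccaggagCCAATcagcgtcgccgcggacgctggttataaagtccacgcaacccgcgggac
Tap1, chr17:34187306-34187555, plus strand: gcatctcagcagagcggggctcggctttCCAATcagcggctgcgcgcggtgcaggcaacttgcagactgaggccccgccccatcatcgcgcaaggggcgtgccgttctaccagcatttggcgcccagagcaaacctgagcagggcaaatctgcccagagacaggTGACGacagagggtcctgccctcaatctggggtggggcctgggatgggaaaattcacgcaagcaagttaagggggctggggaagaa

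The TGACG and ATTGG letters both occurred in 5 of the 8 windows (B2m, H2-K1, H2-D1, Tap1 and Psmb9), against 6.12% of the 32851 RefSeq windows of the same length. An interferon-type match was found in 3 (B2m and both heavy chains) against 12.5%, and the NF-kB letters in H2-K1 and H2-D1 against 0.213%. The Tapbp window held only ATTGG, and those of Psmb8 and Psmb10 held none of the letters searched. H2-K1 and H2-D1 were identical at 166 of 190 aligned bases of these windows (87.4%). Tap1 and Psmb9 start 226 bases apart on opposite strands, so that their windows share 225 bases. Their TGACG and ATTGG matches are the same bases, counted once for each gene. A match is a description of letters and not of binding.

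Levels are given as CPM, the read pairs assigned to a gene scaled to the library total and to its TMM factor. Differences are log2 fold changes with their standard error (SE) from edgeR's quasi-likelihood test over all 13366 tested genes, and a gene was called at a Benjamini-Hochberg adjusted p under 0.05. The labels do not say that the 3 libraries of a group are separate animals, so the tests measure the spread between these libraries, and their p-values do not speak for a spread between mice. That spread was small: edgeR's common coefficient of variation beyond counting error was 3.63% over all libraries. Within LFD, HFD and HFD + EC359 it was 5.61%, 2.54% and 2.76%. Library totals ran from 5085357 to 9751201 counts, and a count of 0 allows up to 0.308 to 0.59 CPM, from counting error alone. LFD replicate 1 stood apart from the other LFD libraries: its mean chi-square against them was 2.54 and 3.10, and it was 1.36 to 1.57 in every other pair of replicates. Counting error alone gives a mean of 1. The 4T1 label was checked against epithelial markers. Krt8, a keratin of simple epithelium, ran from 584.3 to 611.2 CPM in LFD, 405.1 to 414.6 in HFD and 436.5 to 451.1 in HFD + EC359, while Epcam was near the floor in HFD at 0.883 to 1.91 CPM.

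B2m was 1.99-fold higher in HFD than in LFD tumors. Of the other 9 genes, 7 (both heavy chains, Tap1, Tap2, Tapbp, Psmb8 and Psmb10) were lower, by 1.21-fold to 1.46-fold. Of all tested genes, 25.8% were called lower and 26% higher in this comparison. The call of Tap1 was lost when a trend with GC content was removed, as described further on. With EC359 added to HFD, B2m, H2-D1, H2-K1, Tap1 and Nlrc5 were higher than in HFD and no gene of the 10 was lower. Of all tested genes, 12.7% were called higher and 13.9% lower between these groups. The calls of H2-D1, H2-K1 and Tap1 were each lost when certain single libraries were left out.

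**Figure D1:**
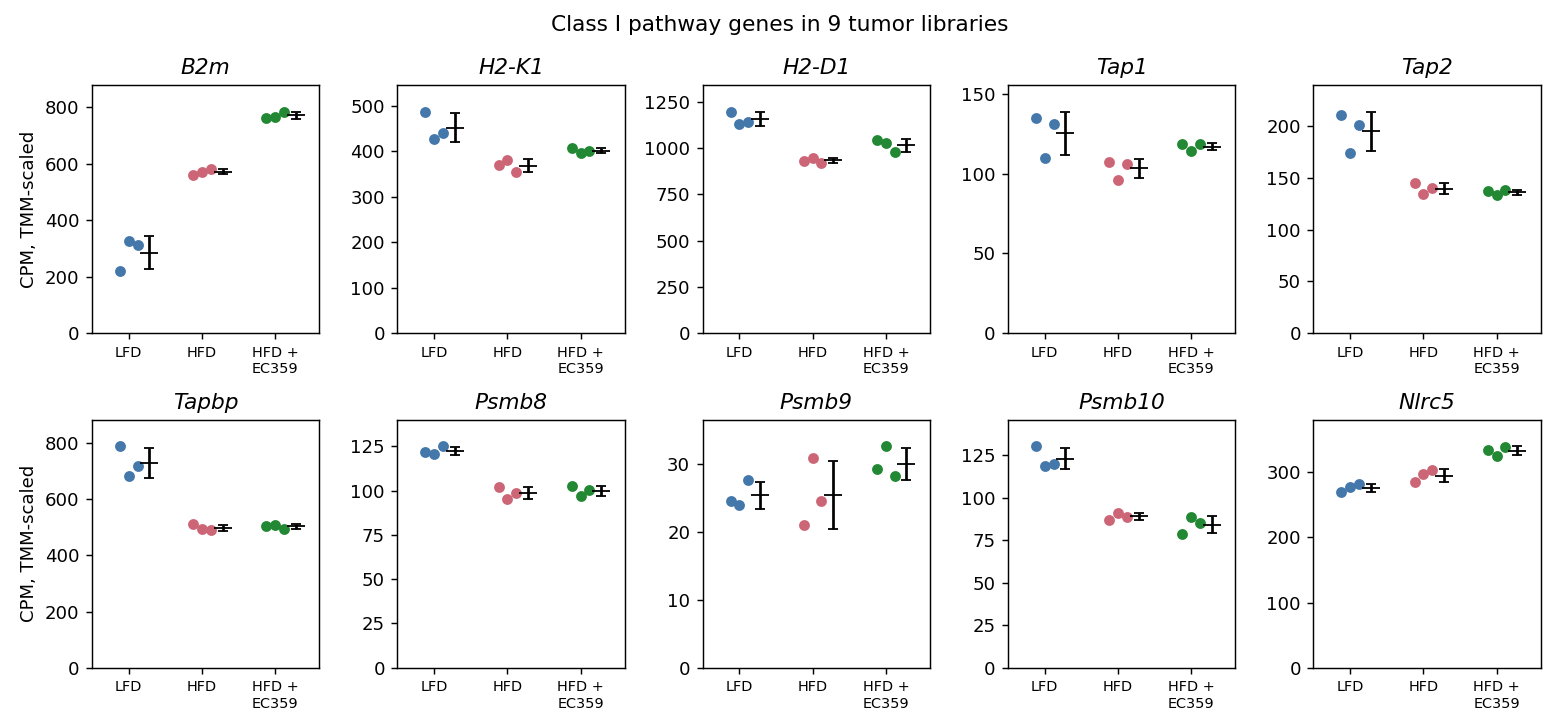
TMM-scaled CPM (vertical axes, each starting at 0) of the 10 class I pathway genes in the 3 libraries of LFD, HFD and HFD + EC359. Points are libraries and the bar beside them is the mean with its SD. B2m rises from 285.4 to 571.6 to 771.6 in the group means, and Tapbp drops from 730.4 to 498.5 and stays at 503.3.

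B2m, the invariant light chain of every class I molecule, was at 218.3, 324.6 and 313.2 CPM in LFD, at 561.7, 572.4 and 580.6 in HFD and at 762.7, 767.2 and 785.1 in HFD + EC359. The 3 groups did not overlap, and LFD replicate 1 was the lowest of the 9 libraries. The log2 difference was 0.99 between HFD and LFD (SE 0.067, adjusted p = 6.33e-14 by edgeR) and 0.43 between HFD + EC359 and HFD (SE 0.062, adjusted p = 1.5e-06 by edgeR). HFD + EC359 exceeded LFD by 1.43 (adjusted p = 3.76e-18 by edgeR), or 2.69-fold. Without LFD replicate 1, the differences from LFD were 0.84 for HFD and 1.27 for HFD + EC359. This was also the only gene of the 10 to pass the fold of 2 and adjusted p of 0.01 given in the study's methods, and only between HFD + EC359 and LFD, where 5.09% of all tested genes passed in either direction. With the trend over GC content removed, as described further on, this difference was 0.94 and no longer passed the fold of 2. The share of all tested genes that passed was 5.71% for HFD against LFD and 3.43% for the comparison of the HFD groups.

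A tumor is a mixture, and in bulk RNA fewer cells of a type and less RNA per cell cannot be told apart. BALB/c carries another class I haplotype (H-2d) than the mm9 reference (H-2b), so the H2-K1 and H2-D1 counts are read pairs that matched the reference alleles, and a level of these genes may be understated relative to the other genes. The Ld heavy chain of BALB/c has no gene in the count table. Where its read pairs were counted is not known, and pairs assigned to another heavy chain would raise the level of that chain. The further class I heavy chains counted further on are also those of the reference, so the same limits hold for them.

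H2-K1, a classical heavy chain that binds the peptide, had 488 CPM, 428.4 CPM and 439.5 CPM in the LFD libraries, 370 CPM, 381.8 CPM and 354.5 CPM in HFD, and 406.7 CPM, 397 CPM and 401.3 CPM in HFD + EC359. The HFD libraries lay below all others and the LFD libraries above all others. The log2 difference between HFD and LFD was -0.29 (SE 0.041, adjusted p = 5.17e-07 by edgeR). Between HFD + EC359 and HFD it was 0.12 (SE 0.04, adjusted p = 0.0224 by edgeR), a call that was lost without HFD replicate 1 (0.12), HFD replicate 3 (0.09), HFD + EC359 replicate 1 (0.11) or replicate 3 (0.12) and with DESeq2 (adjusted p = 0.0656). HFD + EC359 remained below LFD by 0.17 (adjusted p = 0.000704 by edgeR), a difference that turned to 0.01 when a trend with GC content was removed, as described further on.

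H2-D1, the other classical heavy chain, was the most abundant transcript of the set in CPM, with 1198, 1128 and 1142 CPM in LFD, 932.1, 946.4 and 920.6 CPM in HFD, and 1041, 1026 and 977.3 CPM in HFD + EC359. Its groups were in the same order as those of H2-K1 and did not overlap. HFD was lower than LFD by a log2 difference of -0.31 (SE 0.032, adjusted p = 1.34e-09 by edgeR), and HFD + EC359 was higher than HFD by 0.12 (SE 0.032, adjusted p = 0.00436 by edgeR). The second call was lost without HFD + EC359 replicate 1 (0.10, adjusted p = 0.0523). One exon of H2-D1 is shared with LOC547349, a gene model on the same strand, and pairs over both were split. LOC547349, looked at because of this overlap, differed by -0.46 between HFD and LFD (adjusted p = 4.65e-12 by edgeR) and by 0.08 between HFD + EC359 and HFD (adjusted p = 0.0959 by edgeR). The sum of both genes was 1608 to 1699 CPM in LFD, 1260 to 1306 CPM in HFD and 1355 to 1423 CPM in HFD + EC359, again without overlap.

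Because a ratio inside one library does not depend on library scaling, the light chain was set against the heavy chains per kilobase of exon, a ratio chosen after the values had been seen. The B2m to H2-K1 ratio was 0.858, 1.45 and 1.37 in LFD, 2.91, 2.88 and 3.14 in HFD, and 3.60, 3.71 and 3.75 in HFD + EC359. The ratio to H2-D1 was 0.369 to 0.582 in LFD, 1.22 to 1.28 in HFD and 1.48 to 1.63 in HFD + EC359. No 2 groups overlapped in either ratio. HFD exceeded LFD by 2.49-fold and 2.52-fold, and HFD + EC359 exceeded HFD by 1.24-fold in both. These ratios still hold the unequal GC content of the genes: with the GC trend removed, HFD differed from LFD by 0.68 for B2m, -0.10 for H2-K1 and -0.14 for H2-D1 on the log2 scale, and HFD + EC359 from HFD by 0.26, 0.12 and 0.11. For both ratios without removal of the trend, the exact permutation test, two-sided, gave p = 0.1 in each comparison. This is the smallest that 3 against 3 libraries allow, and it was 0.12 after Benjamini-Hochberg adjustment over the 24 ratio tests made. Ratios with the trend removed were not tested.

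**Figure D2:**
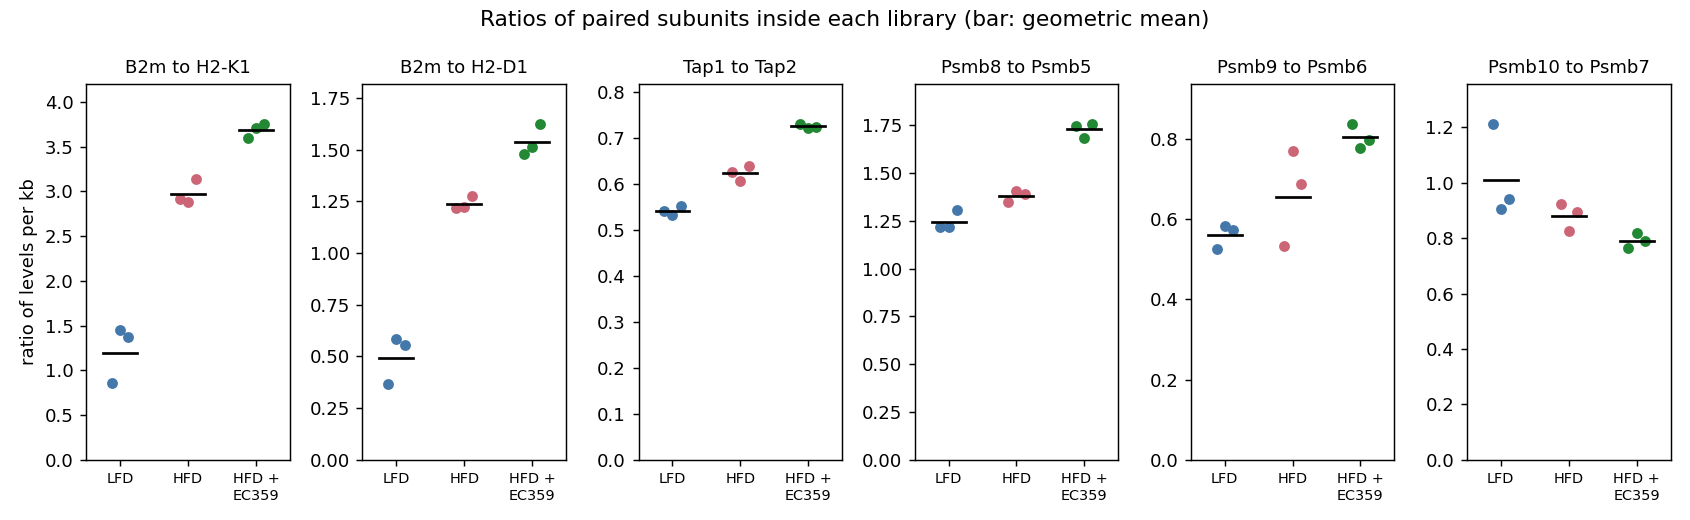
Ratios of exon-length-scaled levels inside each library (vertical axes, each starting at 0) for 6 gene pairs. Points are the 3 libraries of a group and bars are geometric means. B2m relative to H2-K1 lies between 0.858 and 1.45 in LFD and between 3.60 and 3.75 in HFD + EC359, while Psmb10 relative to Psmb7 goes the other way. The GC trend is not removed from these ratios.

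The peptide transporter is a pair of Tap1 and Tap2, and the calls for its members differed after EC359. Tap1 was at 135, 109.9 and 131.3 CPM in LFD, 107.6, 96.3 and 106.2 CPM in HFD, and 118.5, 114.2 and 118.4 CPM in HFD + EC359. Its HFD libraries were below all others, and the HFD + EC359 libraries fell within the LFD range. Tap1 was lower in HFD than in LFD by a log2 difference of -0.27 (SE 0.061, adjusted p = 0.000335 by edgeR) and higher in HFD + EC359 than in HFD by 0.18 (SE 0.057, adjusted p = 0.0185 by edgeR). This rise was not called without HFD replicate 2 (0.13), HFD + EC359 replicate 1 (0.17) or replicate 3 (0.17), nor by DESeq2 (adjusted p = 0.0682). HFD + EC359 and LFD differed by -0.09 (adjusted p = 0.177 by edgeR, 95% interval -0.21 to 0.02), which became a call of -0.19 without LFD replicate 2 and a call of the other sign, 0.16, with the GC trend removed (adjusted p = 0.0123 by edgeR). With that trend removed the difference of HFD from LFD was -0.06 and was not called (adjusted p = 0.422 by edgeR).

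Tap2 was at 210.9, 174.4 and 201.3 CPM in LFD, 145, 134.1 and 140.5 CPM in HFD, and 137.1, 133.6 and 138.1 CPM in HFD + EC359. Both HFD groups lay below LFD and overlapped each other. The log2 difference between HFD and LFD was -0.48 (SE 0.053, adjusted p = 5.1e-09 by edgeR), and between HFD + EC359 and HFD it was -0.04 (adjusted p = 0.657 by edgeR, 95% interval -0.14 to 0.06). The Tap1 to Tap2 ratio per kilobase, also chosen after seeing values, went from 0.532 to 0.551 in LFD, to 0.606 to 0.638 in HFD and to 0.721 to 0.730 in HFD + EC359 with no overlap (exact permutation p = 0.1 for each pair of groups).

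Tapbp encodes tapasin, which keeps the heavy chain ready for a peptide. It was at 789.1, 684.9 and 717.3 CPM in LFD, 510.8, 495.1 and 489.4 CPM in HFD, and 505.5, 509.5 and 494.9 CPM in HFD + EC359. All 6 HFD-fed libraries lay below the LFD libraries. Its log2 difference between HFD and LFD, -0.55 (SE 0.039, adjusted p = 2.26e-13 by edgeR), was the lowest of the 10 genes. HFD + EC359 and HFD differed by 0.01 (adjusted p = 0.843 by edgeR, 95% interval -0.06 to 0.09), and HFD + EC359 was lower than LFD by -0.54 (adjusted p = 1.84e-13 by edgeR).

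The inducible proteasome subunits replace 3 constitutive ones, Psmb8 for Psmb5, Psmb9 for Psmb6 and Psmb10 for Psmb7. Psmb8 was at 121.9, 120.6 and 125 CPM in LFD, 102, 95.1 and 98.4 CPM in HFD, and 102.6, 96.8 and 100.2 CPM in HFD + EC359. Psmb10 was at 130.3, 118.8 and 120 CPM in LFD, 86.9, 91.3 and 88.9 CPM in HFD, and 78.7, 88.9 and 85 CPM in HFD + EC359. For both genes the LFD libraries lay above all others and the other 2 groups overlapped.

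Psmb8 differed by -0.31 between HFD and LFD (SE 0.05, adjusted p = 3.99e-06 by edgeR) and by 0.02 between HFD + EC359 and HFD (adjusted p = 0.822 by edgeR, 95% interval -0.08 to 0.11). The same differences for Psmb10 were -0.46 (SE 0.055, adjusted p = 1.72e-08 by edgeR) and -0.08 (adjusted p = 0.314 by edgeR, 95% interval -0.18 to 0.03). Neither gene was called higher with EC359.

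Psmb9 had the fewest reads of the 10 genes, with 120 to 289 counts in a library, and was at 24.6, 24 and 27.7 CPM in LFD, 21.1, 30.9 and 24.5 CPM in HFD, and 29.2, 32.6 and 28.2 CPM in HFD + EC359. The HFD libraries spread over both other groups. It was called in no comparison, with log2 differences of 0.00 (adjusted p = 0.98 by edgeR), 0.23 (adjusted p = 0.101) and 0.24 (adjusted p = 0.0674). HFD replicate 2 set the second value, which became 0.40 without it (adjusted p = 0.00936 by edgeR). The third was called in 8 of 18 alternatives, at 0.30 without LFD replicate 3 and 0.24 without HFD replicate 2 among them.

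The 3 inducible subunits were set against their constitutive counterparts inside each library. The Psmb8 to Psmb5 ratio per kilobase was 1.22, 1.22 and 1.31 in LFD, 1.35, 1.41 and 1.39 in HFD, and 1.75, 1.68 and 1.76 in HFD + EC359, so that the ratio rose from group to group without overlap. Psmb5 itself, the chymotrypsin-like constitutive subunit, was lower in HFD than in LFD by -0.46 and lower again in HFD + EC359 by -0.31 (adjusted p = 1.19e-06 and 0.000975 by edgeR). Exons of Psmb5 overlap those of 1 other gene model on the same strand, and pairs over both were split. The part of this overlap in the Psmb5 values was not tested. The Psmb9 to Psmb6 ratio was 0.526 to 0.582 in LFD, 0.534 to 0.770 in HFD and 0.777 to 0.837 in HFD + EC359, where only the last group stood clear. The Psmb10 to Psmb7 ratio was 0.904 to 1.21 in LFD, 0.825 to 0.922 in HFD and 0.763 to 0.818 in HFD + EC359, and it was lower in HFD + EC359 than in either other group. Exact permutation tests gave p = 0.1 (adjusted 0.12) for all of these pairs of groups except HFD against LFD for Psmb9 to Psmb6 (p = 0.3) and Psmb10 to Psmb7 (p = 0.2). Psmb6 and Psmb7 were lower in HFD than in LFD by -0.23 and -0.28 (adjusted p = 0.0168 and 0.000761 by edgeR) and were not called between HFD + EC359 and HFD. These ratios also hold the unequal GC content of the genes. With the GC trend removed, Psmb10 and Psmb7 differed by -0.26 and -0.35 between HFD and LFD. Between HFD + EC359 and LFD they differed by -0.36 and -0.37, so that the lower ratio did not remain there. In that comparison Psmb8 and Psmb5 differed by -0.13 and -0.60, and Psmb9 and Psmb6 by 0.43 and -0.29.

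Nlrc5, the class I transactivator, was at 268.8, 277.7 and 281.1 CPM in LFD, 284.6, 296.3 and 303 CPM in HFD, and 333.4, 325 and 338.9 CPM in HFD + EC359. The groups did not overlap. The difference of HFD from LFD was 0.09 (SE 0.039, adjusted p = 0.0461 by edgeR), and this call was lost in 12 of 18 alternatives, with 0.07 to 0.11 when any LFD library, HFD replicate 2 or 3 or any HFD + EC359 library was left out. HFD + EC359 was higher than HFD by 0.17 (SE 0.038, adjusted p = 0.000561 by edgeR) and higher than LFD by 0.27 (adjusted p = 4.36e-07 by edgeR). H2-K1 relative to Nlrc5 per kilobase was 6.51 to 7.66 in LFD, 4.94 to 5.48 in HFD and 5.00 to 5.15 in HFD + EC359, and the last 2 groups overlapped (exact permutation p = 0.4).

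In all, 2 of the 10 genes were called higher in HFD than in LFD (B2m and Nlrc5) and 7 lower. Of all tested genes, 26% were called higher and 25.8% lower in this comparison, and the median log2 difference was -0.30 over the 10 genes and 0.01 over all tested genes. Between HFD + EC359 and HFD, 5 were higher and 0 lower, beside 12.7% and 13.9% of all tested genes, with medians of 0.12 and 0.01. DESeq2 called 3 of these 5 (B2m, H2-D1 and Nlrc5), and neither DESeq2 nor edgeR at an unadjusted p under 0.05 had any of the 10 lower (0 and 0). Between HFD + EC359 and LFD, 2 were higher (B2m and Nlrc5) and 6 lower, beside 29.2% and 29.1% of all tested genes. The libraries of 2 groups did not overlap for 9 of the 10 (HFD and LFD), 5 of the 10 (HFD + EC359 and HFD) and 9 of the 10 (HFD + EC359 and LFD). Over all tested genes these shares were 57.1%, 41.3% and 62.9%. The comparisons share libraries and are not independent of each other.

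**Figure D3:**
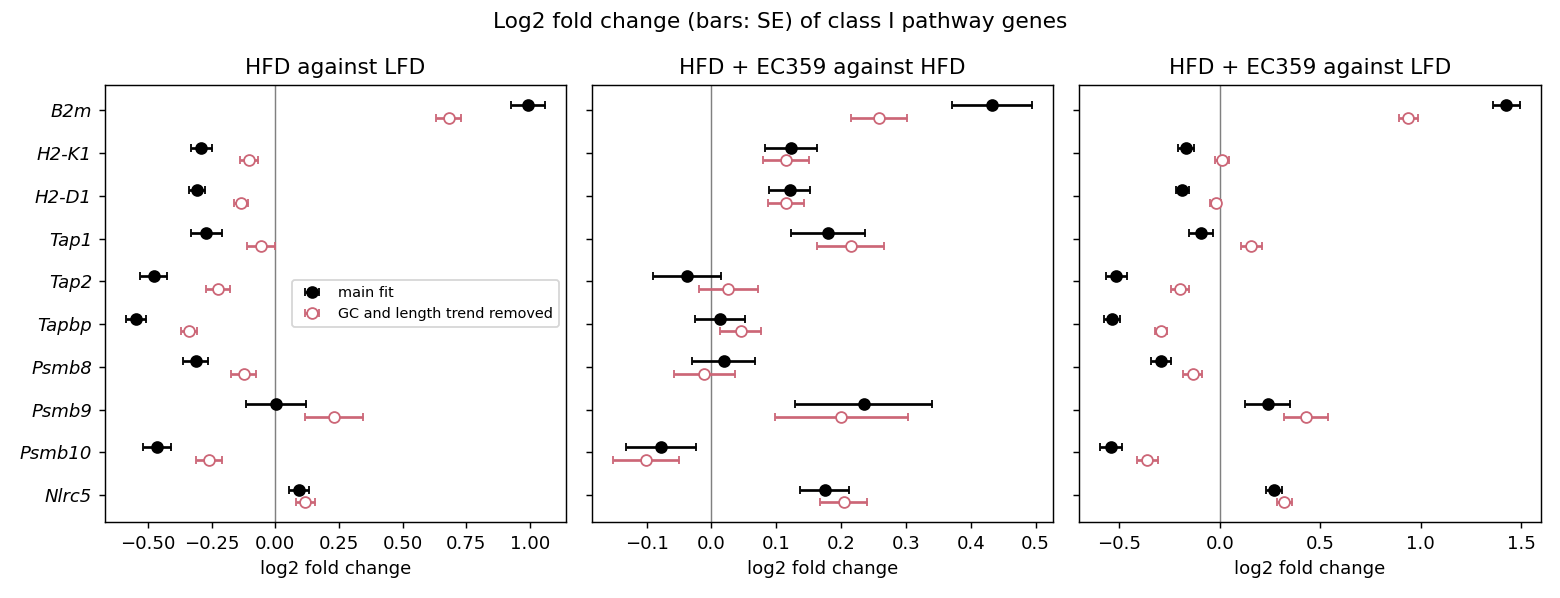
Log2 fold change (horizontal axes, each panel with its own scale) of the 10 genes in the 3 comparisons, with SE bars. Filled points are from edgeR on TMM-scaled counts, and open points are from the same fit after the trend of each library with GC content and length was removed. B2m stays to the right in all panels, at 0.68, 0.26 and 0.94 after removal, and H2-K1 in the last panel shifts from -0.17 to 0.01.

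Levels per kilobase of exon, the scale on which genes can be compared, put H2-D1 first in LFD (666 CPM per kb, SD 21.3), followed by B2m (333, SD 68), H2-K1 (275, SD 19.2) and Tapbp (266, SD 19.4). In HFD + EC359, B2m came first (899, SD 13.8), followed by H2-D1 (585, SD 19.2), H2-K1 (244, SD 2.96) and Tapbp (183, SD 2.74). The order of B2m and H2-D1 was already exchanged in HFD, where B2m had 666 (SD 11.1) and H2-D1 537 (SD 7.43). That exchange depends on the reads assigned to LOC547349: with all of them added over the exon length of H2-D1, an upper value, H2-D1 was at 726 to 752 CPM per kb in HFD against 655 to 677 for B2m, and at 781 to 820 against 889 to 915 in HFD + EC359. In LFD, B2m and H2-K1 lay within their spread of each other, as did H2-K1 and Tapbp. The rest of the order was close to constant, with Psmb8 (87.5 over the 9 libraries), Psmb10 (77.8), Tap2 (63.1), Nlrc5 (43.3), Tap1 (39.1) and Psmb9 (33.5). Nlrc5 and Tap1 were within their spread in LFD, and Tap1 and Psmb9 in HFD and in HFD + EC359.

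GC content moved with the groups. The mean of the 25% of genes lowest in GC minus that of the 25% highest in GC was -0.54, -0.32 and -0.36 in the LFD libraries, 0.10 to 0.16 in HFD and 0.25 to 0.30 in HFD + EC359, in centred log2 CPM. B2m has 41.3% GC in its exons, and the other 9 genes have 52.9% to 58.8%. With the trend of each library over GC content and length removed, B2m remained higher by 0.68, 0.26 and 0.94 in the 3 comparisons, all called. For HFD against LFD the heavy chains then differed by -0.10 (H2-K1, adjusted p = 0.0186 by edgeR) and -0.14 (H2-D1, adjusted p = 0.00014), Tap2 by -0.22, Tapbp by -0.34, Psmb8 by -0.12 and Psmb10 by -0.26, still called, and Tap1 by -0.06, which was not (adjusted p = 0.422). The differences of HFD + EC359 from HFD changed little for the heavy chains, Tap1 and Nlrc5 (0.12, 0.11, 0.21 and 0.20, all called). For HFD + EC359 against LFD, H2-D1 was at -0.02 and H2-K1 at 0.01 and neither was called, Tap1 turned to a called 0.16, and Psmb9 was called at 0.43. Tap2, Tapbp, Psmb8 and Psmb10 were called lower there in both fits, at -0.20, -0.29, -0.13 and -0.36 after removal. The part of the GC trend in these results was not tested.

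**Figure D4:**
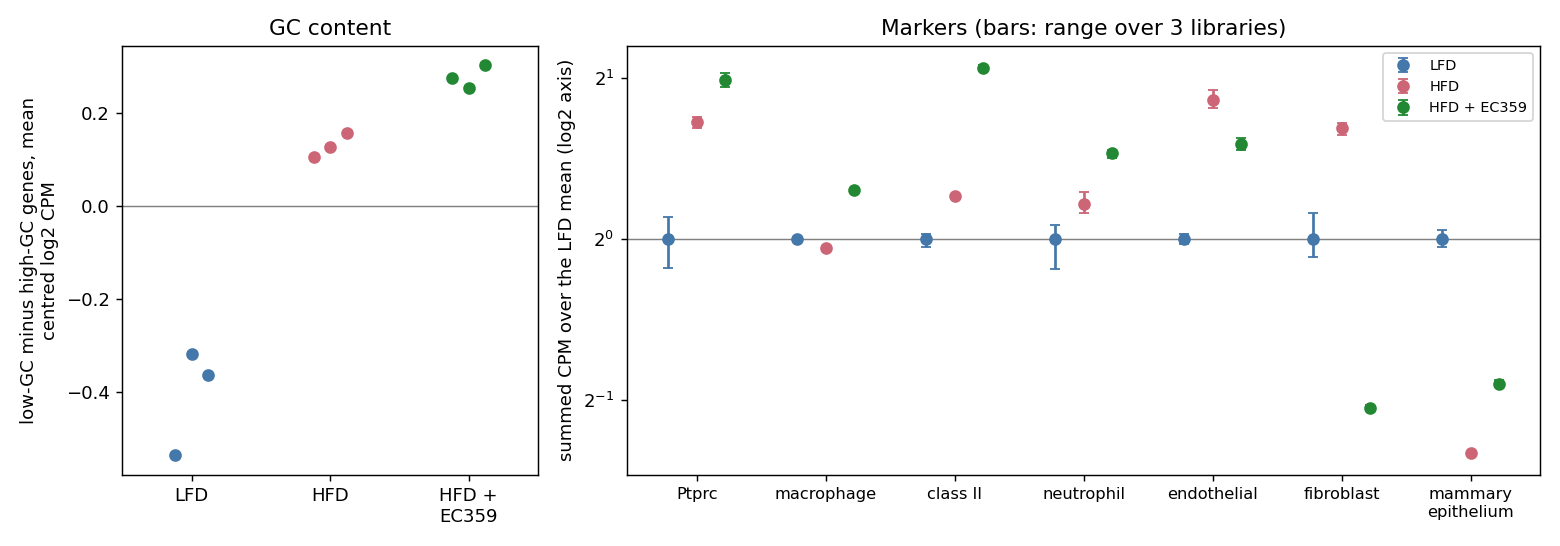
Left, mean centred log2 CPM of the 25% of tested genes lowest in GC minus that of the 25% highest in GC, for each library. Right, summed CPM of marker lists relative to the LFD mean (log2 axis), with bars for the range over 3 libraries. The GC difference runs from -0.54 in LFD replicate 1 to 0.30 in HFD + EC359, and the Ptprc and class II levels rise in the same order of groups.

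Markers of other cells also moved with the groups. Counts of called markers, here and in the next paragraph, stand beside 26% of all tested genes higher and 25.8% lower in HFD against LFD. In HFD + EC359 these shares were 12.7% and 13.9% against HFD, and 29.2% and 29.1% against LFD. Some of the marker counts lie near them. Ptprc (CD45), carried by all leukocytes, was at 55.4 to 69.1 CPM in LFD, 101.3 to 106.1 CPM in HFD and 120.6 to 128.2 CPM in HFD + EC359, in the same order as B2m, with log2 differences of 0.72 and then 0.26 (0.39 and 0.19 with the GC trend removed, both called). The 7 macrophage markers summed to 1448 to 1479 CPM in LFD, 1402 to 1420 CPM in HFD and 1790 to 1815 CPM in HFD + EC359, and all 7 were higher in HFD + EC359 than in HFD. In HFD against LFD 4 of the 7 were higher and 1, Mrc1, was lower (567.3 against 443.4 CPM in the group means), which sets the lower sum. The 7 class II genes of antigen-presenting cells summed to 549 to 579.7 CPM, 677 to 687 CPM and 1169 to 1197 CPM, and all 7 were higher in HFD + EC359 than in either other group.

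The lymphocyte markers were low. The 9 T cell markers together reached 14.1 to 21.3 CPM in LFD, 15.3 to 15.9 CPM in HFD and 19.6 to 23.6 CPM in HFD + EC359, and Cd8a, which defines the T cells that read class I, did not exceed 23 counts in any library. Of the 4 T cell markers tested, Cd4, at 28 to 71 counts, was lower in HFD than in LFD by -0.59 and higher in HFD + EC359 than in HFD by 0.78 (adjusted p = 0.0221 and 0.00229 by edgeR). Cd8a was higher in HFD + EC359 than in LFD by 1.41 (adjusted p = 0.00894 by edgeR), and Lck, at 16 to 59 counts, and Cd3e were not called. The 8 NK cell markers together ran from 4.67 to 8.85 CPM over the 9 libraries, with the 2 tested ones not called, and none of the 5 B cell markers passed the filter. Among other cells, all 6 endothelial and all 6 fibroblast markers were higher in HFD than in LFD, and 4 and 3 of them were lower in HFD + EC359 than in HFD, while 1 fibroblast marker was higher. The 5 neutrophil markers summed to 102.5 to 123.9 CPM in LFD and 165.5 to 171.3 CPM in HFD + EC359, with 4 called higher in HFD + EC359 than in HFD. The 5 mammary epithelium markers were all lower in HFD than in LFD, and 4 of them were higher in HFD + EC359 than in HFD, with 0 lower. They summed to 1820 to 1955 CPM in LFD, 743.4 to 753.8 CPM in HFD and 997 to 1029 CPM in HFD + EC359. Of the tested dendritic cell, adipocyte, epidermis and skeletal muscle markers, 1 of 5, 1 of 3, 0 of 5 and 3 of 5 were higher in HFD than in LFD, and 2, 0, 3 and 0 were lower. In HFD + EC359 against HFD 1, 0, 4 and 0 were higher and 0, 0, 0 and 3 lower. Thus 3 epidermis markers (Krt1, Lor and Dsg1a) were lower in HFD and higher with EC359, as H2-K1, H2-D1 and Tap1 were. So were 4 mammary epithelium markers (Krt8, Krt14, Epcam and Cdh1). The part of these cells in the levels of the 10 genes was not tested.

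Other genes of the pathway were counted by list. The counts here and below stand beside 26% of all tested genes higher and 25.8% lower in HFD against LFD. These shares were 12.7% and 13.9% in HFD + EC359 against HFD, and 29.2% and 29.1% in HFD + EC359 against LFD. Several of the counts lie near them. Of 26 further class I and class I-like heavy chains, 18 were tested, and 11 were lower and 0 higher in HFD than in LFD by edgeR (median -0.24). At an unadjusted p under 0.05 edgeR had 1 higher, and DESeq2 called 5 lower and 0 higher. Among the 11, H2-M2 had only 1 to 20 counts in a library and H2-T3 only 6 to 23. H2-Bl, also among them, spread from 25.7 to 118.9 CPM in LFD (SD 52.7). H2-M2 was also called higher in HFD + EC359 than in HFD, by 2.53 (adjusted p = 0.00117 by edgeR). H2-Q7 with H2-Q9 and H2-T9 with H2-T22 had identical counts in every library, so that these pairs share their reads, and with each pair taken once 10 of 16 were lower. H2-Q2 differed by -0.36, H2-T23, the chain of Qa-1 that is read by natural killer cells, by -0.35, H2-M3, which presents formylated peptides, by -0.23, and H2-Q1 by -0.22 (adjusted p = 1.43e-05, 0.000136, 0.0306 and 0.000652 by edgeR). The call of H2-Q2 was lost with the GC trend removed (-0.10), and that of H2-M3 in 8 of 18 alternatives, DESeq2 and the removal of the GC trend among them (-0.18 without HFD replicate 1, -0.22 without LFD replicate 3 or HFD replicate 3). Between HFD + EC359 and HFD, 3 of the 18 were higher, H2-Q1 among them at 0.14 (adjusted p = 0.0397 by edgeR, lost in 7 of 18 alternatives, with DESeq2 and with 0.10 to 0.12 without HFD replicate 2 or 3 or HFD + EC359 replicate 1 or 3 among them), and 0 were lower by edgeR, also by DESeq2 and at an unadjusted p under 0.05. Between HFD + EC359 and LFD, 2 were higher and 7 lower.

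Of 12 trimming and loading factors of the endoplasmic reticulum, 5 were higher and 1 lower in HFD than in LFD. Erap1, the aminopeptidase that trims peptides to class I length, had 39.7 to 52 CPM in LFD, 58.9 to 66.3 CPM in HFD and 77 to 80.5 CPM in HFD + EC359. The groups did not overlap, and the log2 differences were 0.42 between HFD and LFD and 0.30 between HFD + EC359 and HFD (adjusted p = 2.79e-05 and 0.000749 by edgeR). With the GC trend removed these were 0.10, not called, and 0.21, called. Calr, the chaperone calreticulin, was higher in HFD by 0.24 (adjusted p = 1.03e-06 by edgeR, 0.26 with the trend removed), and Canx, the chaperone calnexin, was higher by 0.18 but lower by -0.14 with the trend removed. Between HFD + EC359 and HFD 2 of the 12 were higher and 1 lower, and between HFD + EC359 and LFD 5 were higher and 2 lower.

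In the proteasome, all 3 constitutive catalytic subunits were lower in HFD than in LFD, and 1, Psmb5, was lower in HFD + EC359 than in HFD. Of the 11 other core subunits, 5 were higher and 3 lower in HFD than in LFD, a single gene was lower in HFD + EC359 than in HFD, and 6 were higher and 3 lower in HFD + EC359 compared with LFD. Of 9 activators and assembly factors, 1 was higher and 3 lower in HFD than in LFD, 3 were higher in HFD + EC359 than in HFD with the other 6 not called, and 2 were higher and 3 lower in HFD + EC359 compared with LFD. Psme2, a subunit of the interferon-inducible activator, was lower in HFD than in LFD by -0.21 (adjusted p = 0.00287 by edgeR), which was not called with the GC trend removed (-0.13). Psme1, the other subunit, differed by -0.08 between HFD and LFD and was not called (adjusted p = 0.182 by edgeR).

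**Figure D5:**
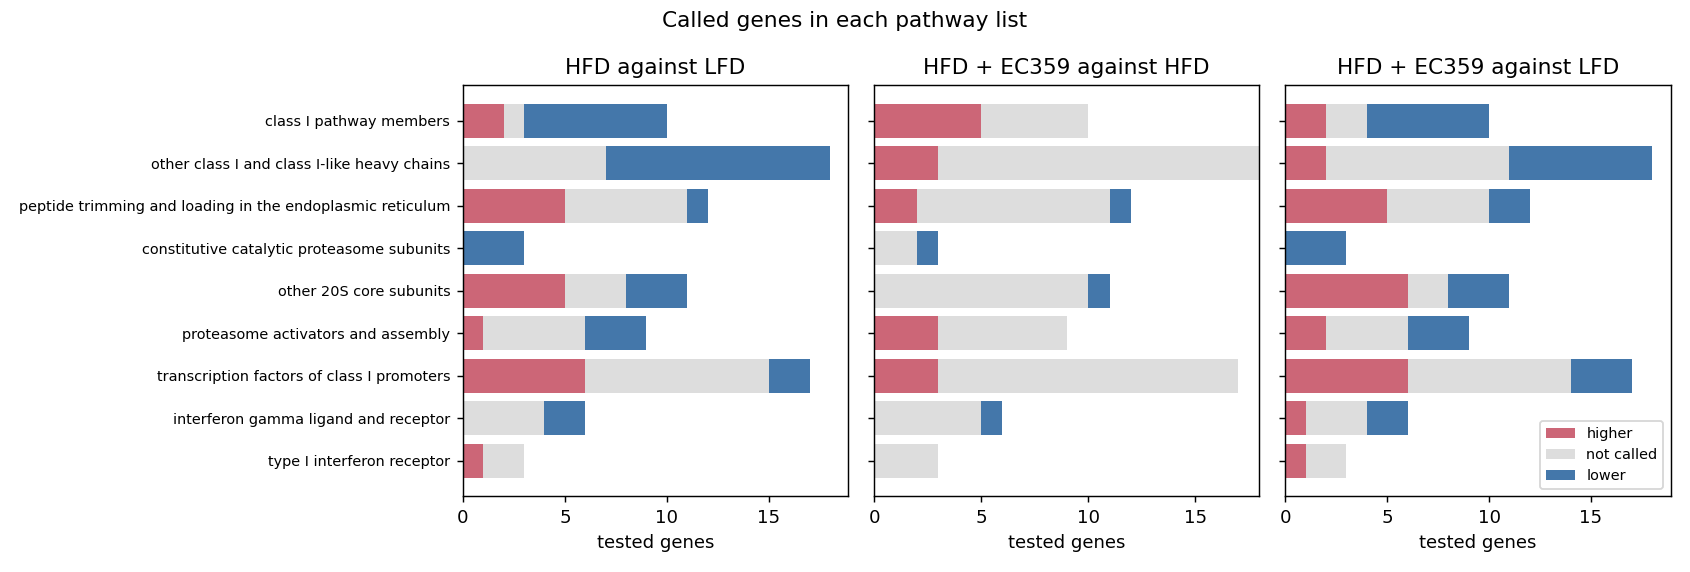
Numbers of tested genes (horizontal axis) that were higher, lower or not called in each comparison, for the 10 genes and 8 further lists of the class I pathway. In the first panel 11 of 18 further heavy chains and 7 of the 10 genes are lower, while 5 of 12 loading factors are higher. Of all tested genes 25.8% are lower and 26% higher in that comparison.

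Of 17 transcription factors of class I promoters, 6 were higher and 2 lower in HFD than in LFD, 3 were higher in HFD + EC359 than in HFD with the other 14 not called, and 6 were higher and 3 lower in HFD + EC359 compared with LFD. Irf1, the interferon-induced activator of class I genes, differed by 0.04 in each step and was not called (adjusted p = 0.553 and 0.592 by edgeR). Rfx5, a part of the complex that Nlrc5 joins, was higher in HFD than in LFD by 0.20 (adjusted p = 0.0426 by edgeR), a call lost in 11 of 18 alternatives, with DESeq2, the replicate block, the GC trend removed (0.15) and 0.15 to 0.20 without LFD replicate 2 or 3, HFD replicate 1 or 2 or HFD + EC359 replicate 2 or 3 among them. Ciita, the class II counterpart of Nlrc5, differed by 0.02 between HFD and LFD and was higher by 0.89 in HFD + EC359 than in HFD (adjusted p = 2.54e-10 by edgeR).

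The interferon gamma gene itself, Ifng, had at most 4 counts in any library and was not tested. Of the 6 tested genes of interferon gamma signaling, 2 (Jak2 and Socs1) were lower in HFD than in LFD, and 1 (Jak2) was lower in HFD + EC359 than in HFD. In HFD + EC359 against LFD 1 (Ptpn2) was higher and 2 (Jak2 and Socs1) were lower, with the rest not called. Of the 3 genes of type I interferon reception, 1 was higher in HFD and in HFD + EC359 than in LFD, and the rest were not called. On chromosome 17, between Tapbp and H2-D1, 67 other genes were tested. Of these 16 were higher and 28 lower in HFD than in LFD, beside 26% and 25.8% of all tested genes. In HFD + EC359 against HFD 10 were higher and 16 lower, beside 12.7% and 13.9%.

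Likeness of pattern was measured as the Euclidean distance between log2 CPM values of the 9 libraries, each centred on the gene's mean. The genes closest to B2m were S100a11 (distance 0.165), Maml2 (0.235) and Gbp4 (0.244), whose log2 differences between HFD + EC359 and LFD were 1.40, 1.43 and 1.38. Those closest to Psmb8 were Fem1a (0.0881), Rit1 (0.101) and Mir5121 (0.103), and those closest to Nlrc5 were Elf1 (0.103), Ctsb (0.105) and Mfsd1 (0.105). None of these 9 is a gene of the set. The closest gene to H2-K1 was H2-D1 (0.114), looked up after the values were seen. For H2-D1, Zbtb7b (0.104) and Dusp7 (0.106) were closer than H2-K1, and neither is a gene of the set.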

How the data were processed

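For 9 libraries of 4T1 tumor RNA, 3 in each of the 3 groups, the authors sequenced stranded 150-base read pairs. The authors deposited unnormalized expected counts, made per the file headers with featureCounts v1.5.0-p1 on mm9 gene models, counting by strand and splitting pairs over several genes or alignments into fractions. The submitters' processing notes name HISAT2 2.1.0, and the methods name TopHat2 and HTSeq. Values were rounded to whole numbers, since 1.19% to 3.55% of genes held a fraction. Genes passing edgeR's filterByExpr (13366 of 22609) were fitted in R 4.3.3 with edgeR 4.0.16 (quasi-likelihood, TMM factors, 3 groups in 1 fit, Benjamini-Hochberg adjustment, called under 0.05), with DESeq2 1.42.0 as an alternative. The fit was tested on simulated counts. Library totals of 5085357 to 9751201 give 120 to 289 counts for the lowest of the 10 genes.

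The genes and lists were chosen with earlier results of these data known. Named genes are the 10, up to 3 tested genes with the highest level per kilobase in each pathway list, a fixed set of proteasome, loading and regulator genes, leading markers, and the 3 closest patterns to B2m, Psmb8 and Nlrc5. GC content was read from exons of the mm9 genome, and a spline trend of each library with GC and length entered 1 alternative as offsets. Other alternatives were scaling, filters, thinning, the replicate block, the threshold of the study's methods and leaving out each library. A result for another regulator gene of the fixed set is not reported here.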

Additional observations from a re-analysis of the deposited data

How the results depend on the processing

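B2m kept its direction and call in all 3 comparisons under all 18 alternatives, with log2 differences of 0.68 to 1.09, 0.26 to 0.47 and 0.94 to 1.52, the last under a fold of 2 at its lowest. Tap2, Tapbp, Psmb8 and Psmb10 kept theirs in both comparisons with LFD, as did Nlrc5 in both comparisons with HFD + EC359 (0.15 to 0.21 and 0.25 to 0.34). In HFD against LFD the number of genes higher was 1 instead of 2 with RLE factors, with only the 6 libraries of the comparison, with thinned counts and with DESeq2, and 1 to 2 with 1 library left out. Under the fold of 2 and adjusted p of 0.01 the numbers higher and lower were 0 and 0 in HFD against LFD, 0 higher in HFD + EC359 against HFD, and 1 and 0 in HFD + EC359 against LFD. In HFD + EC359 against HFD, 5 higher became 3 with DESeq2, which called 8.37% of all genes higher against 12.7%, and 2 to 5 with 1 library left out (2 without HFD + EC359 replicate 1). In HFD + EC359 against LFD, 2 higher became 4 with the GC and length trend removed, a setting that also turned H2-K1 to 0.011, Tap1 to 0.16, H2-Q2 to 0.0019 and Canx to -0.22. It turned Canx to -0.14 in HFD against LFD, and Tap2 to 0.026, Psmb8 to -0.011, Psmb7 to -0.025, Canx to -0.077 and Rfx5 to -0.0088 in HFD + EC359 against HFD. Thinning turned Canx to -0.0021 there, and library totals without factors turned H2-M3 to 0.056 in HFD + EC359 against LFD. Thinning moved the log2 ratio of Psmb8 to Psmb5 to 0.38 and 0.55 (HFD + EC359 against HFD and LFD) and of Psmb9 to Psmb6 to 0.66 (against LFD). With 1 library left out, signs were not stable in HFD against LFD for Psmb9 (-0.16 to 0.13), Irf1 (-0.014 to 0.078) and Ciita (-0.020 to 0.044). In HFD + EC359 against HFD the same held for Tapbp (-0.0035 to 0.031), Psmb8 (-0.0062 to 0.045), Psmb6 (-0.13 to 0.0023), Canx (-0.020 to 0.036), Rfx5 (-0.044 to 0.053) and H2-Q2 (-0.0061 to 0.15). The cause was not tested.

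Libraries with the same replicate number did not deviate together (r from -0.030 to 0.017), and the numbers were not taken as pairs. With the replicate block 2 were higher and 7 lower in HFD against LFD, 5 and 0 in HFD + EC359 against HFD, and 3 and 6 in HFD + EC359 against LFD, where Psmb9 was added at 0.24. Psmb9 had 120 to 289 counts in a library and Cd8a at most 23, which limits the precision of their differences.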
